A study of Mus musculus with 18 samples.

Results

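Replication-dependent histone genes encode the core histones H2A, H2B, H3 and H4 and the linker histone H1, which wrap newly made DNA into chromatin. A gene was a member if its symbol began with Hist1h, Hist2h, Hist3h or Hist4h, did not end in -ps, and its counts summed to at least 100 over the 18 libraries. The set held 63 of the 55450 genes measured: 5 of H1, 17 of H2A, 16 of H2B, 12 of H3 and 13 of H4. Of 69 such symbols, 6 fell under the minimum. The nearest below it was Hist1h2al with 78.4 counts, and the nearest above it were Hist1h4m with 114.33 and Hist2h2ab with 1090.87.

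The cells were mouse cancer lines in culture, labelled wild type: 4T1 from breast carcinoma, MC38 from colon adenocarcinoma, and the Lewis lung carcinoma line LLC. In each, 3 libraries from cells with the solvent DMSO served as controls for 3 from cells exposed to sildenafil citrate, which inhibits the phosphodiesterase PDE5, at 100 µM. Exposure was 48 hours for LLC but 24 hours for the other lines, and 4T1 grew in RPMI 1640 whereas MC38 and LLC grew in DMEM. Line, medium and, for LLC, duration cannot be told apart, nor can any difference in how the libraries of each line were made. Libraries are described as made from RNA captured on oligo-dT beads.

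Messages of this class normally carry no poly(A) tail. Their 3′ end is cut just past a short stem-loop, which is bound by the protein SLBP, and the messages build up in S phase and decay when DNA synthesis stops. Some of these genes can also make longer messages with a poly(A) tail, as is known for Hist1h1c, Hist1h2bc and Hist2h2be. Both oligo-dT capture and cell cycle state therefore bear on how much of this RNA a library can hold, as background to the values that follow.

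The members lay in 4 places of the genome (GRCm38, GENCODE M21). The Hist1 cluster on chromosome 13 held 51 members between bases 21715763 and 23764406, and the Hist2 cluster on chromosome 3 held 10 between 96219865 and 96270132. Hist3h2a on chromosome 11 and Hist4h4 on chromosome 6 stood alone. The stem-loop was searched for on the transcribed strand as GG, any 2 bases, CTTTT, any base, AG, any 2 bases and CC, and 42 of 63 members had it in an annotated transcript. Of 21901 protein-coding genes, 72 (0.329%) had it, 30 of them outside the set. The 21 members without a match included 13 whose transcript models end within 5 bases of the coding end.

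The 6 forms of the stem-loop are shown because they are what sets these messages apart from polyadenylated ones, with the 16 bases of the motif in capitals and their flanks in lower case, 5′ to 3′. The first form was found in 25 members of families H1, H2A, H2B and H3, and the second in 7 H4 genes. The others were found in 5, 2, 2 and 1 members.
Hist1h1c (chr13:23739512-23739527, plus strand): aaaaGGCTCTTTTCAGAGCCaccact
Hist1h4d (chr13:23581950-23581965, plus strand): caaaGGCCCTTTTCAGGGCCactacc
Hist1h2bk (chr13:22036300-22036315, plus strand): caaaGGCTCTTTTAAGAGCCactaaa
Hist1h4i (chr13:22040966-22040981, minus strand): taaaGGCCCTTTTTAGGGCCaccaca
Hist1h4j (chr13:21735437-21735452, plus strand): taaaGGTCCTTTTCAGGACCaccaca
Hist2h2ac (chr3:96220418-96220433, minus strand): aaaaGGCTCTTTTTAGAGCCaccaaa

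Promoters of 58 members were matched in RefSeq (GRCm38.p6), each from 250 bases before to 50 after the gene's start. TATAAA, searched on both strands like the other motifs, was in 32 (55.17%) against 14.16% of all 27025 promoters. CCAAT was in 49 (84.48%, against 37.92%): in every matched H1, H2A, H2B and H3 promoter but in 3 of 12 for H4. The octamer ATTTGCAT was in 11 (18.97%, against 1.75%), of which 6 were H2A and 5 H2B genes. Windows of neighbouring genes on opposite strands can overlap, so the same site can count for both genes. The octamer did so for Hist1h2ah and Hist1h2bk, and for Hist1h2ae and Hist1h2bg. The promoters of Hist2h2bb, the H2B member with the highest mean over the 18 libraries, and Hist1h4d, the H4 member with the highest mean, are shown as examples. Hist2h2bb has CCAAT and the octamer but not TATAAA, and Hist1h4d, one of the 3 H4 promoters with CCAAT, also has TATAAA but not the octamer. Motif matches on either strand are in capitals.
Hist2h2bb (chr3:96269450-96269749, plus strand): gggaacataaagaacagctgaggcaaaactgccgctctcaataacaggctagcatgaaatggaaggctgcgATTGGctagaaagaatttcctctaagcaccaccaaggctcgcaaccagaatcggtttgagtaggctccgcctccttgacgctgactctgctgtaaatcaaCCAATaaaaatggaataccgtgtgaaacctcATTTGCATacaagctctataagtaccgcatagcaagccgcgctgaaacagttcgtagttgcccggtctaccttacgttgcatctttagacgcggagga
Hist1h4d (chr13:23581318-23581617, plus strand): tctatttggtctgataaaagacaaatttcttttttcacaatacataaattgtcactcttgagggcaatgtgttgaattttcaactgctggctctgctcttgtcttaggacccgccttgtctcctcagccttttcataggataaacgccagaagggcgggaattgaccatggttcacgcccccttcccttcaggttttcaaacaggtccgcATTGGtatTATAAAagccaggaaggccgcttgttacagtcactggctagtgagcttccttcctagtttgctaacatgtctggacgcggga

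Totals per library were 41070021 to 61600646 counts for 4T1, 29438187 to 36417399 for MC38 and 26348654 to 32129771 for LLC. Levels are given as CPM (counts per 1000000 counts), scaled by TMM over the 18 libraries. Whether the libraries of a group stem from separate cultures is not in the labels, so a p-value reflects the spread among these libraries alone, which may be technical. RSEM divides reads between near-identical genes, and 59 of the 63 members had a count that was not whole in at least 1 library, so values of close copies such as Hist2h2aa1 and Hist2h2aa2, or Hist2h3c1 and Hist2h3c2, are uncertain. Of the carcinoma markers fixed for the check of cell type, Epcam and Cldn7 were at 0 in MC38 and LLC controls against 55.4 and 20.1 CPM in 4T1, while Krt8 was at 753 CPM in 4T1, 2547 in MC38 and 212 in LLC. Of all 6 markers, 5 were lower and 1 higher in MC38 than in 4T1, against 42.7% and 42.1% of genes (edgeR adjusted p under 0.05). All 6 were lower in LLC, against 45.8%. Counts were 0 over the controls for 2 markers in MC38 and 4 in LLC. Lines were therefore taken from their labels alone.

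Histone messages made up 0.593% to 0.853% of counts in MC38 libraries and 0.952% to 1.21% in LLC libraries, but 0.0041% to 0.0046% in 4T1. The summed level of all members in the 3 control libraries was 41.6, 40.5 and 43.5 CPM in 4T1, 8271, 9072 and 8578 in MC38, and 10262, 9209 and 12052 in LLC. The mean sum was thus 206 times the 4T1 mean in MC38 and 251 times in LLC, and no library of either line came near a 4T1 library. By family sum, H4 had the widest gap, 433 times in MC38 and 435 in LLC, and H2A the narrowest, 104 and 156 times. Gene by gene the order was not the same. In MC38 the median log2 gap was 9.25 for H1, 9.13 for H4 and 6.64 for H2A. In LLC it was 9.42 for H1, 9.06 for H2B, 8.87 for H4 and 6.38 for H2A. These medians include members that did not pass the expression filter within 4T1 and had to differ. In bulk RNA, fewer cells holding a message and less of it per cell cannot be told apart.

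**Figure D1:**
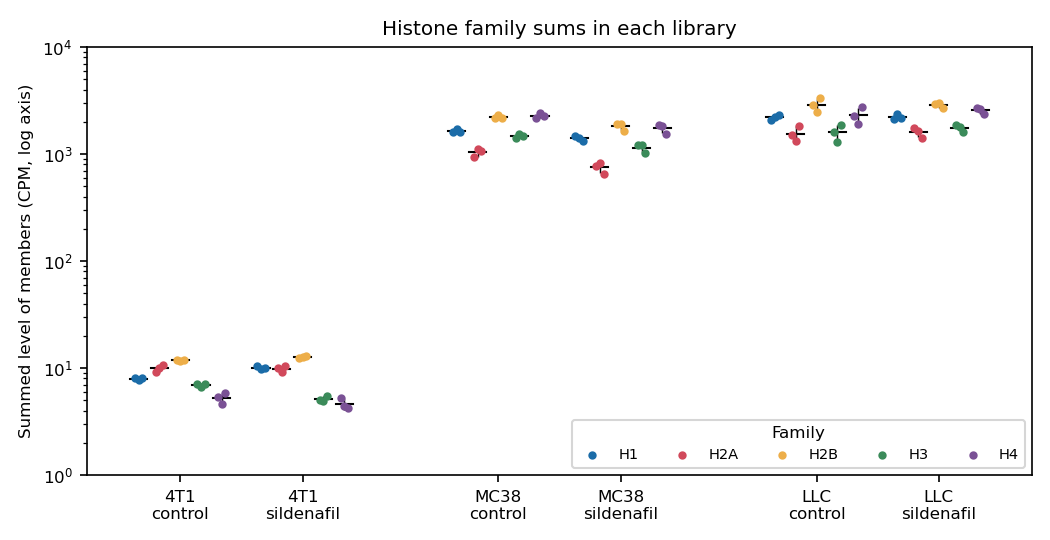
Summed CPM of the members of each histone family (log axis) in each of the 18 libraries; points are libraries, horizontal bars the mean of 3 and vertical lines the SD. All 5 families lie between 4.23 and 12.9 CPM in 4T1 and above 600 in MC38 and LLC.

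The median member stood at 0.291 CPM in 4T1 controls, 115 in MC38 and 125 in LLC. At least 1 CPM was reached by 9 members in 4T1, 62 in MC38 and 59 in LLC. Hist1h4d, a core histone H4 gene, had 0.381, 0.331 and 0.423 CPM in 4T1 controls, 433, 465 and 453 in MC38 and 416, 354 and 458 in LLC. Its log2 difference from 4T1 was 10.22 (SE 0.16) in MC38 and 10.08 (SE 0.16) in LLC (edgeR adjusted p = 2.81e-18 and 2.67e-18). Hist2h2bb, a core H2B gene, had 0.14, 0.0918 and 0.235 CPM in 4T1 controls, 360, 359 and 344 in MC38, and 417, 384 and 451 in LLC, log2 differences of 11.18 (SE 0.11) and 11.41 (SE 0.11). Hist1h1e, a linker histone gene, had 1.02, 1.12 and 0.798 CPM in 4T1, 324, 345 and 334 in MC38, and 548, 575 and 593 in LLC. For these genes no library of MC38 or LLC overlapped a 4T1 library.

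Between controls, all 63 members were higher in MC38 than in 4T1 (edgeR adjusted p under 0.05). Of the 16040 genes tested, 84.8% were called and 42.1% were higher, and no member was lower, against 42.7%. With the replicate number as a block 62 were higher, and Hist1h4m did not pass (adjusted p = 1.0); with the Gm26917 covariate 58 were higher. The median log2 difference was 8.30, against 0.00 for all genes. In LLC 62 members were called, against 87.0% of genes: 59 were higher, against 41.3%, and 3 lower, against 45.8%. Hist1h4i passed in neither direction. The median was 8.50 against -0.07. With the Gm26917 covariate 54 were higher and 2 lower in LLC. Only 38 members passed the expression filter within 4T1, so 25 entered this comparison through MC38 and LLC and had to differ. Among those 38, 38 were higher in MC38 (median 7.80), and 34 were higher and 3 lower in LLC (median 8.11). A difference of at least 64-fold was called for 50 members in MC38 and 51 in LLC, against 5.64% and 7.43% of all genes. Those counts are over all 63 members, with the 25 that had to differ among them, and were not made for the 38 alone.

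At the far end of the gap, Hist2h2aa2 was listed at 0 in all 3 4T1 controls, at 332, 419 and 403 CPM in MC38 and at 650, 546 and 825 in LLC. Its near-identical copy Hist2h2aa1 averaged 1.37, 74.0 and 113 CPM in the same groups, so the reads of the pair may be split unevenly and no fold is given. Hist1h1a, a linker histone gene, had 1 count in the 4T1 controls together, and 290, 299 and 287 CPM in MC38 and 371, 410 and 386 in LLC. At the near end, Hist2h2be had 3.69, 3.56 and 3.83 CPM in 4T1 and 6.97, 7.47 and 7.14 in MC38, a log2 difference of 0.96 (SE 0.07, edgeR adjusted p = 3.48e-11). In LLC the same gene reached 122, 118 and 134 CPM, a difference of 5.08 (SE 0.06). Hist2h2be therefore differed little between 4T1 and MC38 but by a wide margin in LLC.

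The few members with appreciable counts in 4T1 included those known to make polyadenylated messages. Hist1h1c, Hist3h2a, Hist1h2bc, Hist2h2be and Hist1h4i held 48.3% of the member sum in 4T1 controls, whereas the top 5 in MC38 held 22.5% and in LLC 24.0%. Hist1h1c had 6.23, 5.78 and 6.39 CPM in 4T1, 254, 275 and 254 in MC38 and 383, 416 and 440 in LLC. Hist1h2bc had 3.93, 4.10 and 4.25 CPM in 4T1, 118, 137 and 115 in MC38 and 207, 191 and 247 in LLC. Hist3h2a, the lone H2A gene on chromosome 11, had 3.85, 4.02 and 4.65 CPM in 4T1, 79.6, 88.8 and 82.2 in MC38 and 203, 186 and 223 in LLC. Their log2 differences from 4T1 in MC38 were 5.41, 4.91 and 4.33, below the median of 7.80 for the 38 members that passed the filter within 4T1. Hist2h2be had 0.96. Hist1h4i, which is not among the genes named above as known to make polyadenylated messages, had 4.14. As these genes are among the members highest in 4T1, a smaller gap follows in part from that choice. The part of a poly(A) tail in it was not tested. Members whose models run over 100 bases past the stem-loop (20 genes) had a median difference of 8.31 in MC38, and those whose models end nearer it (22 genes) 8.51. Of these, 17 of the 20 and 11 of the 22 passed the filter within 4T1. The rest had to differ, so the 2 medians cannot show whether the classes differ.

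**Figure D2:**
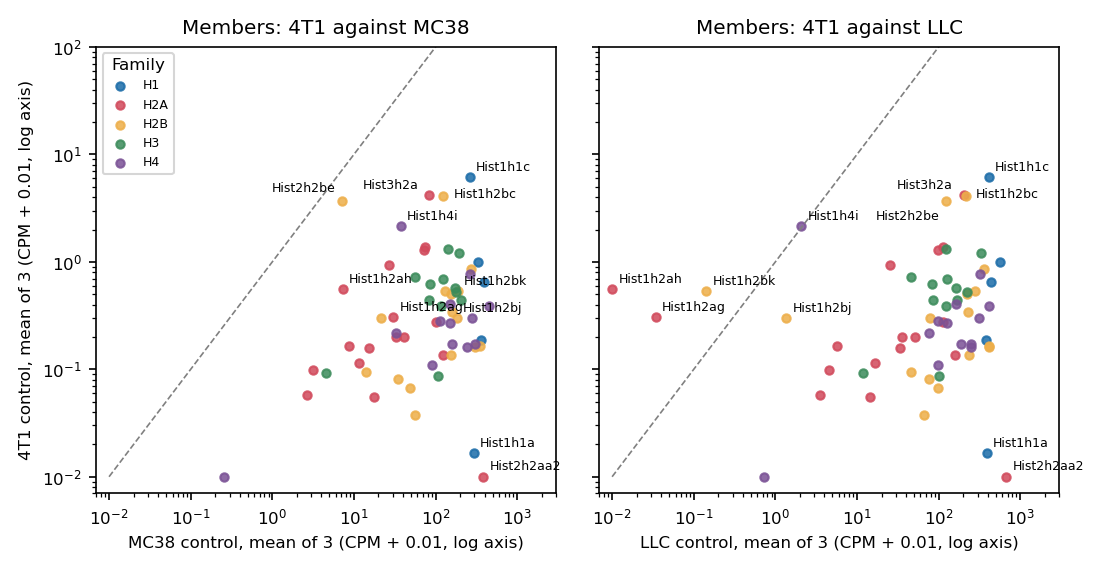
Mean CPM of each member in 4T1 controls (vertical) against MC38 controls (left) and LLC controls (right), n = 3 libraries each, on log axes after adding 0.01, so that 0 is drawn at 0.01; the dashed line marks equal levels. Every member lies to the right of the line in MC38. In LLC Hist1h2ah, Hist1h2ag and Hist1h2bk lie left of it, and Hist1h4i lies just left of it (2.07 CPM against 2.13).

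Other RNA that lacks a poly(A) tail was also higher in MC38 and LLC. Of 18 tested rows of a list of such RNAs, among them the small nuclear RNA 7SK (Rn7sk) and the telomerase RNA Terc, 17 were higher than in 4T1 in both MC38 (median log2 difference 8.24) and LLC (8.72), against 42.1% and 41.3% of all genes. Only 7 of these rows passed the filter within 4T1, so 11 entered through MC38 and LLC and had to differ. Of the 7, 6 were higher in each line (edgeR adjusted p under 0.05), all but Gm42418. Rn7sk averaged 3.32 CPM in 4T1 controls, 22419 in MC38 and 20970 in LLC. Terc averaged 0.134, 14.0 and 25.5 CPM. The list's summed level in controls ranged from 901 to 1119 CPM for 4T1, from 93118 to 108947 for MC38 and from 73742 to 92183 for LLC, and its part in the histone gap was not tested.

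For the lists that follow, 42.1% of all genes were higher and 42.7% lower in MC38, and 41.3% higher and 45.8% lower in LLC. Replication-independent histone genes make polyadenylated messages. Of 10 tested, 4 were higher and 6 lower in MC38 than in 4T1 (median -0.42), and 3 higher and 6 lower in LLC (median -0.29). H1f0, a linker histone of resting cells, averaged 2043 CPM in 4T1 controls, 221 in MC38 and 842 in LLC. Of 26 genes of DNA replication and S phase, 18 were higher and 5 lower in MC38 (median 0.64), and 19 higher and 5 lower in LLC (median 0.53). Of 16 tested genes of histone message processing, 11 were higher and 4 lower in MC38 (median 0.42) and 7 higher and 6 lower in LLC (median 0.02). Slbp, which encodes the stem-loop binding protein, averaged 81.9 CPM in 4T1 controls, 98.5 in MC38 and 83.1 in LLC.

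Within LLC, neighbouring members in 1 stretch of the Hist1 cluster stood apart. Between Zfp184 and Hist1h2bj (chr13:21945094-22043676), 7 of 14 annotated genes reached 0.5 CPM in the controls of some line, and 5 of these were members. These neighbours were chosen after the values of the 3 members lower in LLC than in 4T1 had been seen. The H2A genes Hist1h2ah and Hist1h2ag had 0 CPM in 3 and 2 of the LLC controls and a highest value of 0.0734, against 6.05 to 8.30 and 28.0 to 31.4 CPM in MC38. The H2B gene Hist1h2bk had 0.203, 0 and 0.193 CPM in LLC and 181, 196 and 187 in MC38, and Hist1h2bj averaged 1.35 against 183. The H4 gene Hist1h4i had 2.37, 2.50 and 1.35 CPM in LLC and 37.8, 37.1 and 37.7 in MC38. Each of the 5 genes was thus lower in every LLC control than in any MC38 control.

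The 2 non-histone genes of the stretch, Zfp184 and Prss16, were at 0 in all 6 LLC libraries and averaged 3.91 and 5.23 CPM in 4T1 controls and 6.70 and 4.94 in MC38. The nearest member before the stretch, Hist1h2br, averaged 78.8 CPM in LLC controls, and Zfp322a after it 28.7. Low LLC values were not limited to the stretch: Btn1a1, beyond Zfp322a, averaged 0.113 CPM in LLC controls against 13.8 in MC38 and 1.14 in 4T1, and Olfr11, before the stretch, 0 against 0.644 in MC38. Between Hist1h2bj and Zfp322a, none of 95 annotated genes reached 0.5 CPM in the controls of any line. Against 4T1, Hist1h2ah and Hist1h2ag were called lower in LLC (edgeR adjusted p = 4.82e-08 and 0.000103), as was Hist1h2bk (-1.91, SE 0.59, adjusted p = 0.00739). With the Gm26917 level as a covariate Hist1h2bk did not pass (-1.61, edgeR adjusted p = 0.416). Hist1h2ah had 0 counts in the LLC controls together and was lower than in 4T1 by at least about 16-fold, taking 3 counts over the group as the floor. Hist1h2ag had 2 counts there, under that floor, so no fitted fold is given for it. Hist1h4i differed by -0.05 (SE 0.16).

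**Figure D3:**
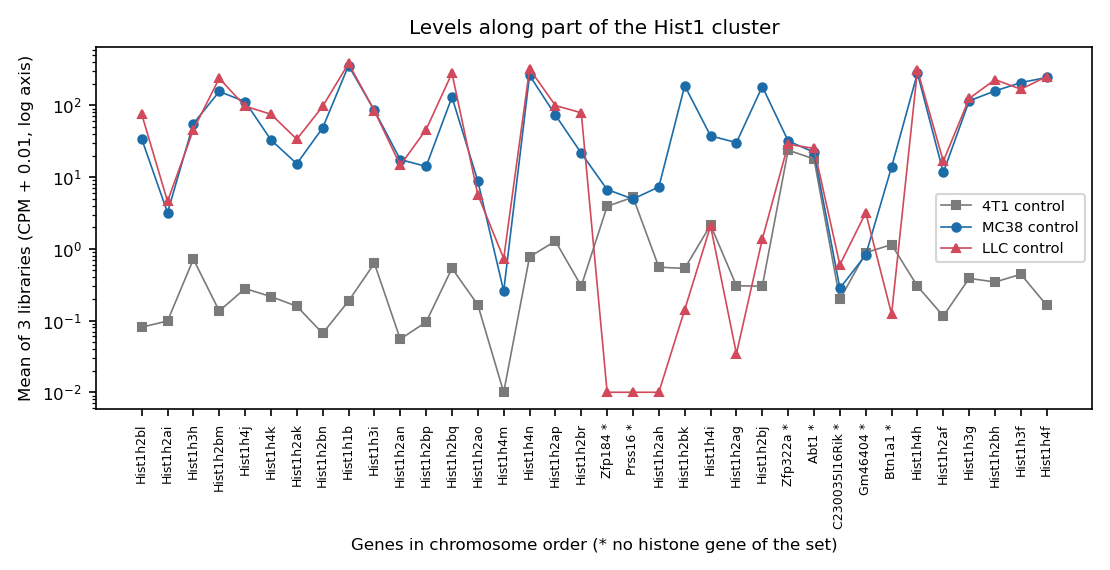
Mean CPM of 3 control libraries (plus 0.01, log axis) for genes in their order along part of the Hist1 cluster, for 4T1, MC38 and LLC; an asterisk marks genes outside the set, and only genes with at least 0.5 CPM in the controls of a line, or members, are drawn. From Zfp184 to Hist1h2bj the LLC line drops to 2.07 CPM or less, while MC38 stays between 4.94 and 188.

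In MC38, members of every histone family fell with sildenafil. The member sum was 8271, 9072 and 8578 CPM in controls and 7245, 7197 and 6161 with sildenafil, a mean of 8640 ± 404 against 6868 ± 612 (SD, n = 3), or a change of -20.5%, and the groups did not overlap. Of 63 members tested, 47 fell (edgeR adjusted p under 0.05), against 18.3% of 13363 genes, 1 rose, against 19.5%, and 15 did not pass. The median log2 change was -0.37, against 0.00 for all genes, and 53 members were lower in each treated library than in any control, against 23.1% of genes. Without control replicate 3, 28 fell and 1 rose. With the level of the non-polyadenylated RNA Gm26917 as a covariate, 4 fell and the median was -0.39; a share of 0.85 of that covariate's variance in MC38 is held by treatment. Gm26917 itself was at 9376, 10985 and 14803 CPM in controls and 5064, 6203 and 5784 with sildenafil, and its part in the fall was not tested.

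By family, all 5 H1 genes fell, as did 12 of 17 H2A, 11 of 16 H2B, 8 of 12 H3 and 11 of 13 H4 genes. The median log2 change was -0.21 for H1, -0.51 for H2A, -0.32 for H2B, -0.39 for H3 and -0.42 for H4. The 3 largest called falls among members averaging at least 1 CPM were in H2A genes. Hist1h2ah went from 6.05, 7.50 and 8.30 CPM to 3.46, 4.39 and 3.34, a log2 change of -0.97 (SE 0.14, edgeR adjusted p = 6.16e-05). Hist1h2ag went from 28.0, 31.4 and 31.3 CPM to 17.3, 19.4 and 15.5 (-0.80, SE 0.08, adjusted p = 9.86e-06). Hist1h2an went from 15.5, 20.2 and 17.0 CPM to 10.8, 12.4 and 8.97 (-0.72, SE 0.15, adjusted p = 0.00859). In each of these the highest treated library lay below the lowest control.

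The linker histone gene Hist1h1c went from 254, 275 and 254 CPM to 232, 227 and 209 (-0.23, SE 0.04, edgeR adjusted p = 0.00186). Hist1h1e fell from 324, 345 and 334 CPM to 301, 297 and 274 (-0.21, SE 0.04, adjusted p = 0.000547), and Hist1h1a from 290, 299 and 287 to 245, 232 and 219 (-0.34, SE 0.04, adjusted p = 8.46e-06). Hist1h4i, the H4 gene, fell from between 37.1 and 37.8 CPM to between 25.6 and 30.3 (-0.42, SE 0.06, adjusted p = 3.23e-05). Hist1h4d changed by -0.24 (SE 0.05, adjusted p = 0.00835), and without control replicate 3 its adjusted p was 0.0547. Hist2h2bb changed by -0.14 (SE 0.04, adjusted p = 0.00756), with 0.0508 without control replicate 1. Hist2h2aa2, at 332, 419 and 403 CPM in controls and 290, 305 and 227 with sildenafil, had -0.49 (SE 0.16) and did not pass (adjusted p = 0.0844).

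Hist1h2bk, the H2B gene, changed in MC38 from 181, 196 and 187 CPM to 156, 153 and 128 (-0.37, SE 0.09, edgeR adjusted p = 0.0223), a call lost without control replicate 2 or 3 (0.0715 and 0.0899). Hist3h2a changed from 79.6, 88.8 and 82.2 CPM to 73.7, 74.8 and 64.3 (-0.24, SE 0.07, adjusted p = 0.0214), lost without the same controls (0.0518 and 0.0616). Hist1h2bc, at 118, 137 and 115 CPM in controls and 103, 103 and 87.0 with sildenafil, did not pass (-0.34, SE 0.11, adjusted p = 0.0651), although its groups did not overlap. Hist1h3c, an H3 gene, fell from 140, 146 and 139 CPM to 113, 115 and 102 (-0.37, SE 0.04, adjusted p = 1.45e-05). By stem-loop class, 17 of the 22 members whose models end near the loop fell, as did 16 of the 20 that run past it and 14 of the 21 with no match.

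Hist2h2be was the 1 member that rose in MC38, from 6.97, 7.47 and 7.14 CPM to 9.18, 8.57 and 9.34 (log2 change 0.33, SE 0.09, edgeR adjusted p = 0.00697), with no overlap between groups. It rose in 4T1 as well, from 3.69, 3.56 and 3.83 CPM to 5.54, 5.56 and 5.27 (0.55, SE 0.09, adjusted p = 7.37e-05). In LLC it fell, from 122, 118 and 134 CPM to 105, 110 and 103 (-0.25, SE 0.06, adjusted p = 0.00964; 0.0611 without sildenafil replicate 3). The 3 lines have separate controls. Its response in LLC was lower than in 4T1 by 0.80 (SE 0.08, adjusted p = 6.07e-08), and the MC38 response differed from that of 4T1 by -0.24 (SE 0.10, adjusted p = 0.0736).

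**Figure D4:**
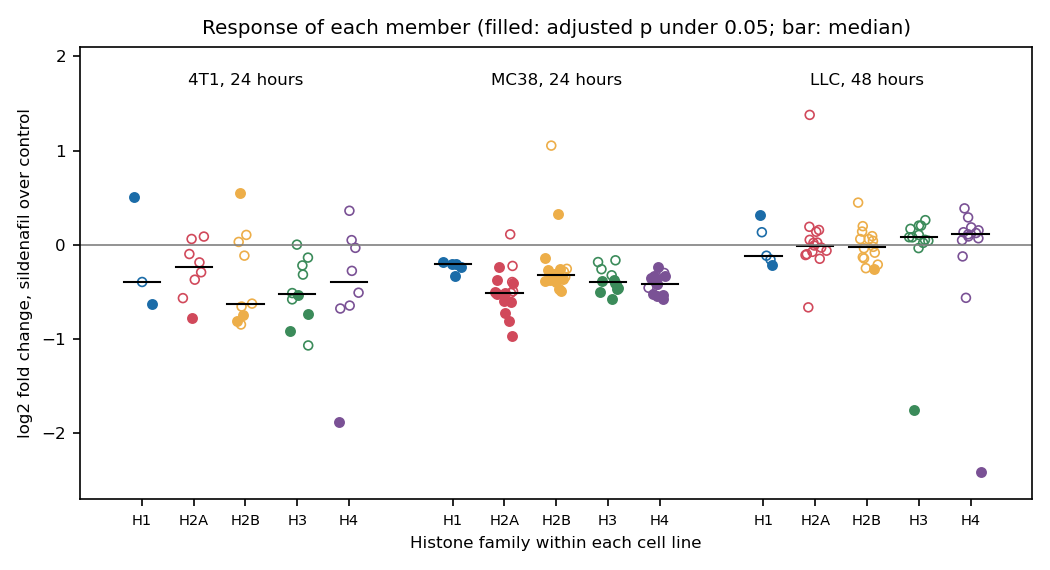
Log2 fold change of each tested member, sildenafil over control, by histone family in 4T1, MC38 (24 hours) and LLC (48 hours); filled points passed adjusted p under 0.05, open points did not, and bars are family medians. In MC38 every family median is negative, between -0.51 and -0.21, and in LLC they lie between -0.12 and 0.11.

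In LLC, treated for 48 hours, 55 of the 60 members tested did not pass. The member sum was 10262, 9209 and 12052 CPM in controls and 11354, 11421 and 10234 with sildenafil, and the groups overlapped (10508 ± 1437 against 11003 ± 667, SD, n = 3). Called members numbered 5, against 27.3% of genes: 1 rose, against 15.1%, and 4 fell, against 12.2%, with a median log2 change of 0.05. These counts depended on single libraries: without control replicate 3, whose member sum was the highest of the 6, 9 rose and 4 fell. Without sildenafil replicate 1, 1 rose and 2 fell, without replicate 2, 2 fell, and without replicate 3, 1 fell. Hist2h3c1, an H3 gene, fell from 12.3, 14.5 and 8.55 CPM to 3.53, 2.91 and 4.12 (-1.75, SE 0.22, edgeR adjusted p = 0.00148). Its close copy Hist2h3c2 was at 340, 272 and 395 CPM in controls and 439, 417 and 366 with sildenafil (0.26, SE 0.15, adjusted p = 0.232).

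Hist1h1a was the 1 member that rose in LLC, from 371, 410 and 386 CPM to 427, 547 and 493 (0.31, SE 0.09, edgeR adjusted p = 0.0274). Each of 4 libraries ended that call when left out (control replicates 1 and 3 and sildenafil replicates 2 and 3, adjusted p = 0.0824 to 0.150). The linker histone gene Hist1h1d fell from 400, 452 and 472 CPM to 375, 412 and 372 (-0.21, SE 0.07, adjusted p = 0.0470). Each of 5 libraries (all but control replicate 1) ended that call when left out (adjusted p = 0.0598 to 0.188), and the groups overlapped. Hist1h4m, named because it completes the count, had at most 1.10 CPM in any LLC library and fell by 2.41 on the log2 scale (SE 0.68, adjusted p = 0.0316), a call lost without any 1 library but control replicate 3 (0.0520 to 0.0959).

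In 4T1 the groups overlapped in the member sum, at 41.6, 40.5 and 43.5 CPM in controls and 43.2, 41.3 and 42.9 with sildenafil. Of 38 members tested, 10 were called, against 66.7% of genes: 2 rose, against 33.5%, and 8 fell, against 33.3%, with a median log2 change of -0.38. Hist1h1c rose from 6.23, 5.78 and 6.39 CPM to 9.28, 8.57 and 8.57 (0.51, SE 0.07, edgeR adjusted p = 3.14e-05), and Hist2h2be rose as given above. The 8 that fell had control means of 0.392 to 1.3 CPM, so their changes rest on few counts. Groups did not overlap for 2 members with sildenafil higher, against 37.2% of genes, and 9 with it lower, against 33.8%. Among them, Hist2h3c2 fell from 1.20, 0.973 and 1.39 CPM to 0.667, 0.594 and 0.636 (-0.91, SE 0.21, adjusted p = 0.00150). That call was lost in 1 fit of all 18 libraries (edgeR adjusted p = 0.0653) and with the Gm26917 covariate (0.602). The division of reads with its close copy Hist2h3c1, which did not pass the filter within 4T1, was not tested. The top 5 members held 59.1% of the sum with sildenafil, against 48.3% in controls. Without control replicate 3, or without sildenafil replicate 1, 2 rose and 3 fell.

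Hist1h3c changed by -0.53 in 4T1 (SE 0.19, edgeR adjusted p = 0.0243), Hist1h1e by -0.63 (SE 0.22, adjusted p = 0.0214) and Hist1h2ah by -0.78 (SE 0.27, adjusted p = 0.0230). For Hist1h3c and Hist1h1e, leaving out 1 of 4 libraries ended the call (adjusted p = 0.0523 to 0.105 and 0.0591 to 0.0971), namely control replicates 1 and 3 and both sildenafil replicates 1 and 2 for Hist1h3c, and control replicates 1 and 2 and sildenafil replicates 1 and 2 for Hist1h1e. For Hist1h2ah, control replicates 1 and 3 and sildenafil replicate 1 did so (0.0540 to 0.0999).

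Tested directly over the 18 libraries, few members responded differently in MC38 or LLC than in 4T1. The responses of MC38 and LLC were not tested against each other. Between MC38 and 4T1, 1 member differed, against 34.6% of genes, and was lower in MC38, against 16.7%: Hist1h1c, with a difference of -0.76 (SE 0.09, edgeR adjusted p = 6.20e-07). Between LLC and 4T1, 3 were higher and 3 lower, against 21.8% and 20.2% of genes. Among the 38 members that passed the filter within 4T1, 2 were higher (Hist1h1e and Hist2h3c2) and 2 lower (Hist1h1c and Hist2h2be). The others, Hist1h2ak and Hist2h3c1, entered through MC38 and LLC. Low counts in 4T1 left wide errors on most of these differences; for Hist1h4d, for example, the MC38 response minus the 4T1 response was 0.24 (SE 0.42).

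Genes that act around histone synthesis were followed as lists, against shares of all genes that rose and fell of 33.5% and 33.3% in 4T1, 19.5% and 18.3% in MC38, and 15.1% and 12.2% in LLC. In 4T1 all 26 genes of the S-phase list fell (median -0.41), as did all 13 histone chaperone genes (median -0.44) and 12 of 16 tested genes of histone message processing (1 rose). In MC38, 5 of the 26 S-phase genes fell, near the share of all genes, and 2 rose (median 0.00), 7 of 13 chaperone genes fell, and 9 of 16 processing genes fell. In LLC, 13 S-phase genes rose and 0 fell (median 0.16), 2 chaperone genes rose and 1 fell, and 4 processing genes rose and 3 fell. Cdc6, which loads the replicative helicase, went from 35.4, 36.7 and 35.9 CPM to 22.1, 20.5 and 19.1 in 4T1 (-0.82, SE 0.05) and from 50.9, 53.7 and 56.0 to 68.6, 72.4 and 73.9 in LLC (0.40, SE 0.05). In MC38, where the histone members fell, Cdc6 changed by -0.01 (SE 0.03).

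Chaf1a, a subunit of the chaperone that deposits H3 and H4 at replication forks, changed by -0.33 (SE 0.03) in 4T1, 0.04 (SE 0.03) in MC38 and 0.23 (SE 0.05) in LLC. Slbp changed by -0.19 (SE 0.04) in 4T1, -0.02 (SE 0.03) in MC38 and 0.20 (SE 0.06) in LLC, where each of 5 libraries ended the call when left out (all but control replicate 3, adjusted p = 0.0776 to 0.117). Replication-independent histone genes went both ways: 3 of 9 rose and 5 fell in 4T1, 3 of 9 rose and 2 fell in MC38, and 4 of 10 rose and none fell in LLC. H1f0 rose by 0.44 (SE 0.03) in 4T1 and 0.23 (SE 0.04) in MC38, the line in which all 5 replication-dependent H1 genes fell. In LLC H1f0 was called higher as well. Each of 5 libraries ended that call when left out (all but control replicate 3, edgeR adjusted p = 0.0625 to 0.107). Of the list of RNAs without a poly(A) tail, 2 of 7 tested rose in 4T1, 2 of 17 fell in MC38, and 1 rose and 1 fell in LLC. The list's median log2 change was 0.41 in 4T1, -0.22 in MC38 and -0.10 in LLC. For all genes it was 0.00, 0.00 and -0.01.

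Markers of other cell types were summed in each library. The summed level of 8 leukocyte markers was 9.71 to 10.2 CPM in 4T1 controls and 37.4 to 38.4 with sildenafil, almost all from Cd68, with Cd3e at 0 in every group. It was 5.92 to 6.39 and 9.75 to 10.5 CPM in MC38, and 2.57 to 3.15 and 4.65 to 5.62 in LLC. The 6 fibroblast markers summed to 26.5 to 29.0 CPM in 4T1 controls and 51.4 to 59.6 with sildenafil, 486 to 504 and 422 to 424 in MC38, and 1091 to 1128 and 2111 to 2146 in LLC, mostly from Col3a1 in MC38 and LLC. The 5 endothelial markers summed to 2.45 CPM or less in every library. The 6 carcinoma markers summed to 2526 to 2589 CPM in MC38 controls and 2024 to 2171 with sildenafil, almost all from Krt8. The part of these markers in the histone results was not tested.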

How the data were processed

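Expected counts for each gene in 18 libraries were deposited by the authors. Tools named in the submitters' processing notes are RSEM 1.3.1, STAR 2.7.0f, cutadapt 1.18 and bcl2fastq 2.17, with build mm10. For annotation release and strand setting, nothing is given in the sources used here. All 55450 identifiers and symbols matched GENCODE M21. Expected counts were rounded and tested with edgeR 4.0.16 in R 4.3.3 (TMM, default filter, robust quasi-likelihood F test, Benjamini-Hochberg over all genes tested, threshold 0.05). Treatment was tested within a line on 6 libraries (4 residual degrees of freedom), and gaps and response differences on all 18 (12 residual degrees of freedom). A standard error (SE) is the log2 change divided by the square root of F. Fits were tested on simulated data, in which the share of wrong calls exceeded the nominal one for MC38 and LLC, so calls near the threshold there are less firm. No 2 libraries had identical counts.

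Members and gene lists were chosen with earlier results of these data known. Members were named by a rule: the highest mean CPM of each family, the 3 largest called rises and falls per line with a mean of at least 1 CPM in it, the 3 largest and 3 smallest gaps at that mean over 18 libraries, and Hist1h1c, Hist1h2bc, Hist2h2be, Hist3h2a and Slbp. Hist1h4m, Hist1h2ak, Hist1h2bj, Hist1h2br, Hist2h2aa1, Hist1h4j, Hist2h2ac and the neighbours Zfp184, Prss16, Zfp322a, Btn1a1 and Olfr11 were added after values were seen. Of each list, the 2 genes with the smallest adjusted p in a line, and markers at or near 0, could be named. Where a count was 5 or fewer, its genes could be named in full. Alternatives were DESeq2 1.42.0, RLE factors, library totals, scaling on protein-coding genes outside the set, no filter, a filter of 5 CPM in 3 libraries, unrounded counts, a replicate block, the Gm26917 level as a covariate, other sets of libraries and each library left out. Figures were drawn with matplotlib 3.10.9.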

Additional observations from a re-analysis of the deposited data

Results flagged for a closer look

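A difference between lines in the response to sildenafil, tested over all 18 libraries with edgeR, marked 6 members in 7 comparisons. For Hist1h1c the response in MC38 minus that in 4T1 was -0.76 on the log2 scale, and that in LLC minus 4T1 was -0.67 (SE 0.09, edgeR adjusted p = 2.17e-06): it rose in 4T1, fell in MC38 and did not pass in LLC (-0.16, adjusted p = 0.0832). For Hist2h2be the LLC response minus the 4T1 response was -0.8. For Hist2h3c1 it was -2.76 (SE 0.63, edgeR adjusted p = 0.00121), with 4T1 levels of 0.0184 to 0.233 CPM, and 12 and 28 counts in the 4T1 controls and treated libraries together. It did not pass the filter within 4T1 and entered through MC38 and LLC.

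The remaining members had a higher response in LLC than in 4T1. Hist1h2ak, an H2A gene, differed by 1.89 (SE 0.65), with 4T1 levels of 0.0227 to 0.180 CPM. It had 22 and 6 counts in the 4T1 controls and treated libraries together, did not pass the filter within 4T1 and entered through MC38 and LLC. Its difference left the threshold without control replicate 1 or sildenafil replicate 2 or 3 of 4T1 (adjusted p = 0.0550 to 0.0755, edgeR). Hist1h1e differed by 0.53 (SE 0.16, edgeR adjusted p = 0.0110), lost without 4T1 control replicate 2 (0.104) or sildenafil replicate 1 (0.0529). Hist2h3c2 differed by 1.16 (SE 0.39, edgeR adjusted p = 0.0303), lost without any of 6 libraries: 4T1 control replicates 1 and 3, the 3 4T1 sildenafil replicates and LLC control replicate 1 (0.0532 to 0.0795), and lost with the replicate block (adjusted p = 0.102). Its close copy Hist2h3c1 differed the other way, as given above, and the division of reads between the copies was not tested.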

How the results depend on the processing

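Against 4T1 controls, 62 to 63 members were called in MC38, all higher, and 62 in LLC, 59 higher and 3 lower, when any 1 library was left out. Member calls in MC38 ran from 29 to 53 without 1 library, in 4T1 from 5 to 10 and in LLC from 1 to 13; the LLC split turned to 9 higher and 4 lower without control replicate 3. In 4T1, DESeq2 and 1 fit of all 18 libraries each called 5 members, the 5 CPM filter left 2 members, both called higher (2 calls), and the Gm26917 covariate, of whose variance treatment holds a share of 0.967 in 4T1, called 0 (10 in the fit without it; median -0.68). In MC38 that covariate called 4. In LLC 1 fit of all 18 libraries called 8. For MC38 minus 4T1 the count was 2 with the replicate block and with the covariate, 10 with DESeq2, 16 with no filter, 5 on the 12 libraries of those lines, 4 with the 5 CPM filter, 3 on library totals, and 1 to 3 without 1 library. For LLC minus 4T1 it was 17 with DESeq2, 19 with no filter and 4 to 8 without 1 library. With the covariate, the gap of Hist1h2ah between MC38 and 4T1 turned to -0.0438 (edgeR adjusted p = 0.987). Causes were not tested. Whether replicate numbers pair the samples was not settled, as each line gives only 3 same-numbered pairs. Deviations of same-numbered control and sildenafil libraries correlated at -0.14, 0.17 and -0.04 in 4T1. In MC38 the values were 0.06, 0.17 and 0.29, and in LLC 0.40, -0.25 and 0.22. Not every library correlated best with its own number, though each MC38 control did. The replicate block gave 9 calls in 4T1, 44 in MC38 and 6 in LLC, and 62 for each gap. A 4T1 library held 1851 to 2783 member counts although its total was above those of the other lines, so few counts limit the members' 4T1 values.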
